A study of Mus musculus with 8 samples.

Results

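Genes that mark the absorptive and stem cells of the intestinal epithelium were described in cells sorted as smooth muscle. The set holds 9 genes, Alpi, Cps1, Cdhr5, Cdx1, Cdx2, Vil1, Fabp1, Fabp2 and Olfm4, taken by gene symbol from a table of 21649 genes. All 9 symbols were found, once each. The table covers 8 RNA sequencing libraries of mouse cells labelled as non-vascular smooth muscle cells and isolated by fluorescence-activated sorting, with 3 libraries from bladder, 3 from intestine and 2 from lung. All groups shared the genotype Cspg4-Dre/Acta2-CreERT/R26-GFP, in which the Dre recombinase is named for Cspg4, a gene of pericytes and some smooth muscle, and the Cre recombinase for Acta2, the smooth muscle actin gene. All groups also received tamoxifen, at a dose of 0.75 mg per 10 g for 3 days, so no library lacks the alleles or the drug. The sources used here give no age, sex, sorting gate or stretch of intestine. Whether the libraries of a tissue stem from different mice is not stated, and the spread behind each p-value may therefore be a technical one.

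The intestinal epithelium is a single cell layer renewed from stem cells at the base of the crypts. Their progeny become absorptive enterocytes, which carry a brush border of microvilli, or secretory cells. The homeobox factors CDX1 and CDX2 set intestinal identity in this layer, and smooth muscle lies outside it in the wall of the gut. The genes are known from the epithelium: Vil1 and Cdhr5 build microvilli, Alpi and Cps1 encode enzymes, Fabp1 and Fabp2 carry fatty acids, and Olfm4 marks crypt stem cells.

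Values are normalized read counts rounded to whole numbers, and the text calls them normalized counts. The libraries held 9.72 to 13.62 M reads, reconstructed from the spacing of the values, and 3 reads correspond to 2.47 to 3.81 normalized counts depending on the library. Among contractile genes, Acta2 averaged 2602 ± 308 (SD, n = 3) in bladder, 2643 ± 214 (n = 3) in intestine and 2675 ± 62.9 (n = 2) in lung. Myh11, the smooth muscle myosin heavy chain, averaged 5041 ± 921, 11954 ± 546 and 10587 ± 295. Lmod1 averaged 313, 2438 and 3326, and Mylk 2028, 5570 and 5840.5. Of 10 contractile genes tested with limma, 6 were higher in intestine than in bladder, 2 lower and 2 not past the threshold. With the deposited scaling undone, 10 were higher and 0 lower. Cspg4 averaged 412 ± 23.4 in bladder, 4402 ± 200.5 in intestine and 4401 ± 503.5 in lung.

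All 9 genes were present at 465 to 5724 normalized counts in each intestine library and at 0 to 21 in every bladder and lung library. In a limma fit over all 8 libraries, each of the 9 was higher in intestine than in bladder, where 28.7% of the 18097 tested genes were higher in intestine, and each was higher than in lung, where 23.6% were. Called lower in intestine were 23.3% of tested genes against bladder and 15.9% against lung, and none of the 9. The libraries overlapped for none of the 9 in either comparison, with all 9 lying wholly higher in intestine. Of all tested genes, 34.3% lay wholly higher and 29.1% wholly lower than in bladder, and 31.6% wholly higher and 26.9% wholly lower than in lung. The genes passed the filter on low values through the intestine libraries, so their counts describe the set and carry no further weight. Their median difference on the log2(value + 1) scale was 8.97 over bladder and 9.23 over lung. It was 8.37 and 8.84 when genes at 0 throughout a tissue were placed at the bound that 3 reads per library allow. Over all tested genes the medians were 0.06 and 0.04. In bulk RNA, fewer cells of a type and less RNA per cell cannot be told apart.

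**Figure D1:**
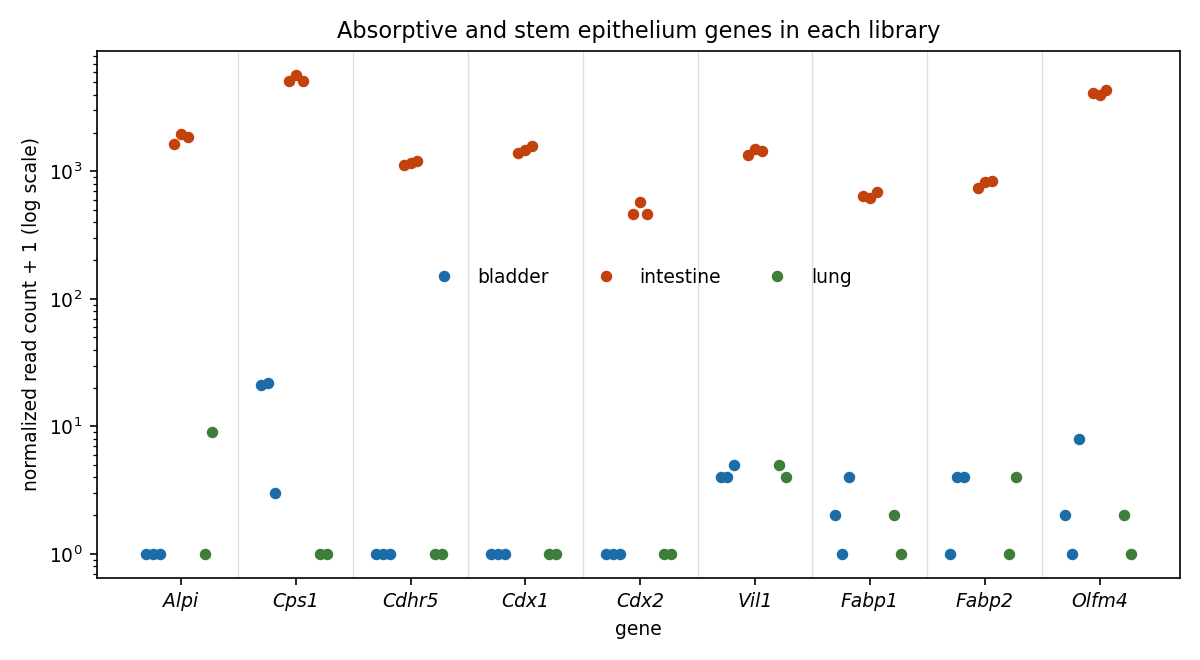
Normalized read count plus 1 (log axis) of each of the 9 genes in every library, 1 point per library, coloured by tissue. The intestine points lie between 465 and 5724 before adding 1, and no bladder or lung point exceeds 21.

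Cdx1, a homeobox transcription factor of crypts and villi, was listed at 0 in all 3 bladder libraries and both lung libraries. In intestine it stood at 1402, 1476 and 1566 normalized counts, a mean of 1481.3 ± 82.13 (SD, n = 3). It was at least 409.7-fold higher than in bladder (log2 difference 10.53, SE 0.33, adjusted p = 1.12e-07). Over lung it was at least 585.2-fold higher (log2 difference 10.53, SE 0.37, adjusted p = 2.08e-07). Such bounds set the tissue at 0 to the mean of its libraries' 3-read floors. Each p-value belongs to the log2(value + 1) difference and not to the bound. Libraries all at 0 add no spread to the fit, so such a p-value can be too small.

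Cdx2, at chr5:147237615-147244080 on the minus strand of mm39, is the related factor whose loss turns intestinal epithelium towards other fates. It too was listed at 0 in all 5 bladder and lung libraries and reached 465, 578 and 466 in intestine (503 ± 64.95, n = 3). Library 2 stood above the other two, which were within 1 normalized count of each other. The rise was at least 139.1-fold over bladder (log2 difference 8.97, SE 0.36, adjusted p = 2.91e-07). Over lung the rise was at least 198.7-fold (log2 difference 8.97, SE 0.40, adjusted p = 5.27e-07). Neither factor had a read outside intestine.

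Because CDX factors bind the core ATAAA, the 250 bases before the start of each gene were searched for ATAAA on either strand (TTTAT in the other direction). RefSeq promoter sequences of build GRCm38.p6 were matched for 7 of the 9 genes. Of these 7, 5 held at least 1 match, against 37.3% of 32851 windows of that length. Of the 5, the windows of Fabp1, Fabp2, Alpi and Cdhr5 are shown 5′ to 3′, since they hold the matches nearest to the start, with each match in capitals.

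Fabp1, chr6:71199629-71199878, plus strand: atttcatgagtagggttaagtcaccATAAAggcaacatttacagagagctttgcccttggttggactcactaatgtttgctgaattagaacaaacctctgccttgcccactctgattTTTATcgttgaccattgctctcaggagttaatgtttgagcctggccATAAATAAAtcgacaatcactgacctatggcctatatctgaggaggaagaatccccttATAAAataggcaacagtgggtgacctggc
Fabp2, chr3:122894822-122895071, plus strand: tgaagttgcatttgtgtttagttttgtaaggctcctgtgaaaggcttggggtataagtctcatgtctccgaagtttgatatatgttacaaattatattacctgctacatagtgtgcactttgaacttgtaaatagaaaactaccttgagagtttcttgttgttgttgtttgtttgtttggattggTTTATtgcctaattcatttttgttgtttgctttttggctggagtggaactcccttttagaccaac
Alpi, chr1:87101607-87101856, minus strand: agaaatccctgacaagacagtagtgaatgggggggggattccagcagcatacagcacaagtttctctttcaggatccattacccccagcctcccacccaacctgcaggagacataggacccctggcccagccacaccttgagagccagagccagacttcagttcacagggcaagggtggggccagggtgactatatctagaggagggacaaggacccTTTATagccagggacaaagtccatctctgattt
Cdhr5, chr7:141276787-141277036, minus strand: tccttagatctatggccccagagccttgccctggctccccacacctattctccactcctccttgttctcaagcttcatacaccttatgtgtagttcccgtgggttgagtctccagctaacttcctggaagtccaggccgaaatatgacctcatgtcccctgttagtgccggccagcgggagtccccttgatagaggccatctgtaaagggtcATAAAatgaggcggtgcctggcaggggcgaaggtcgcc

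Fabp1 held 5 matches, at -225, -133, -87, -83 and -29 from the start, and the pair at -87 and -83 overlaps by 1 base. Its match at -29 is part of a TATAAA, a letter string of the TATA box, that begins at -30. Fabp2 held 1 match, at -65. Alpi held 1, at -33, which lies within a TATAAA read on the other strand. Cdhr5 held 1, at -38. Olfm4 also held 1, at -228, while the windows of Vil1 and Cdx2 held none. TATAAA occurred in 2 of the 7 windows against 12.4% of all. CAAAGTCC, a string bound by the nuclear receptor HNF4, occurred in 1 of 7, Alpi at -19, against 1.2% of all. GTTAAT, contained in sites of HNF1, occurred in 3 of 7, Fabp1 at -107, Olfm4 at -219 and Cdx2 at -30, against 6.43%. These matches describe letters in a window, and a window without one says only that the letters are not there.

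Vil1 encodes villin, which bundles the actin core of microvilli, and lies at chr1:74448535-74474718 on the plus strand. It was the only gene of the 9 above 0 in every library. Bladder libraries held 3, 3 and 4 normalized counts and lung libraries 4 and 3, against 1349, 1490 and 1436 in intestine (1425 ± 71.14, n = 3). The ratio was 445.7 over bladder (95% counting interval 226 to 1033.0, log2 difference 8.37, SE 0.29, adjusted p = 1.48e-07). Over lung it was 422.9 (214.4 to 980.1, log2 difference 8.32, SE 0.32, adjusted p = 2.96e-07). Counting intervals here cover counting error only, since amplified reads are not independent molecules. The gene overlaps Usp37 on the other strand, which had 328 to 498 normalized counts in every tissue, and the library kit does not mark strand.

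Cdhr5, a cadherin that joins the tips of neighbouring microvilli, lies at chr7:140848996-140856699 on the minus strand. It was at 0 in all bladder and lung libraries and at 1118, 1159 and 1200 in intestine (1159 ± 41, n = 3). Its spread between intestine libraries, a coefficient of variation of 3.54%, was the smallest of the 9. It was at least 320.6-fold higher than in bladder (log2 difference 10.18, SE 0.34, adjusted p = 1.29e-07). Over lung it was at least 457.9-fold higher (log2 difference 10.18, SE 0.38, adjusted p = 2.72e-07).

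Its binding partner Cdhr2 followed the same pattern, at 1179 ± 125 in intestine against means of 1 in bladder and 0 in lung (log2 difference over bladder 9.53, SE 0.55, adjusted p = 1.35e-06). Ush1c, which anchors the 2 cadherins inside the cell, averaged 763 ± 16.3 in intestine, 1.67 in bladder and 1.5 in lung. Of 14 genes of the brush border cytoskeleton and its adhesion links, 11 were higher over bladder, 2 were lower and 1 did not pass the test. Myo1a, the membrane-tethering myosin of microvilli, averaged 1582 ± 220 in intestine and 14 ± 3.46 in bladder. The 2 that fell were general actin regulators: Eps8 (2177 ± 195 in bladder, 1140 ± 132 in intestine, adjusted p = 7.31e-05) and Ezr, which encodes ezrin (2555 ± 100 and 1995 ± 66.5, adjusted p = 0.00555). Lower calls dropped from 2 to 1 with quantile scaling and with the deposited scaling undone. Against lung all 14 were higher in intestine.

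Alpi encodes the intestinal alkaline phosphatase of the brush border and lies at chr1:87025724-87029328 on the minus strand. It was at 0 in all 3 bladder libraries, at 0 and 8 in the lung libraries, and at 1624, 1944 and 1858 in intestine (1808.7 ± 165.6, n = 3). It was at least 500.3-fold higher than in bladder (log2 difference 10.82, SE 0.68, adjusted p = 2.12e-06). Over lung the ratio was 477.2 (251.2 to 1044.1, log2 difference 9.23, SE 0.76, adjusted p = 1.54e-05). The lung value rests on library 2 alone: the log2 difference was 10.82 without it and 7.65 without lung library 1.

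Its close relative Akp3, the duodenal alkaline phosphatase, stood at 936, 1173 and 1198 in intestine, 0 in all bladder libraries, and 7 and 0 in lung, where the nonzero value was in the other library. Of 2288 stretches of 50 bases in the Alpi transcripts, 55 occur in other genes, 35 of them in Akp3, so reads of these stretches are uncertain between them. Alpl, the tissue-nonspecific alkaline phosphatase, went the other way, with 2557 in bladder, 1397 in intestine and 1846 in lung on average (intestine minus bladder log2 -0.87, SE 0.11, adjusted p = 0.000141).

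Of 18 brush border digestive enzymes, 15 were higher in intestine than in bladder, 2 lower and 1 not past the threshold. Sucrase-isomaltase, Sis, averaged 575 ± 107 in intestine and 0 in bladder, at least 159.1-fold higher, and the meprin subunit Mep1b 237 ± 13.6 and 0, at least 65.6-fold. The 2 lower enzymes were aminopeptidases that other cells also make, Anpep (2206 ± 131 in bladder, 934 ± 133 in intestine, adjusted p = 0.000548) and Xpnpep2 (means of 440 and 256, adjusted p = 0.00705). Dpp4, another broadly made peptidase, averaged 754 in bladder and 682 in intestine (adjusted p = 0.765). Against lung 16 of the 18 were higher and none lower. Enterocyte transporters were higher than in bladder for 21 of the 24 tested, led by the calcium-binding S100g (414 ± 28.8 against 0) and the amino acid transporter subunit Slc7a9 (192 ± 14.7 against 0). The 2 lower were Slc46a1, a folate carrier also called a haem carrier (1038 in bladder, 409 in intestine), and the iron oxidase Heph (516 and 351). With the deposited scaling undone, lower calls dropped from 2 to 1 among the transporters and from 2 to 1 among the digestive enzymes.

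Cps1 encodes the mitochondrial enzyme that opens the urea cycle, used in gut epithelium to make citrulline, and lies at chr1:67162185-67270418 on the plus strand. In intestine it stood at 5144, 5724 and 5149 (5339 ± 333.4, n = 3). It was the only gene of the 9 to exceed 10 in bladder, at 20, 21 and 2 (14.33 ± 10.69, n = 3), which are 16, 17 and 2 reconstructed reads, and it was at 0 in both lung libraries. The ratio of intestine to bladder was 393.3 (281.4 to 568.1, log2 difference 8.90, SE 0.67, adjusted p = 5.79e-06), with log2 7.95 when bladder library 3 was left out. Over lung Cps1 was at least 2109.2-fold higher (log2 difference 12.38, SE 0.75, adjusted p = 2.22e-06).

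The enzyme's pathway did not move as a block. Of 12 genes of the urea cycle and citrulline synthesis, 6 were called higher over bladder, 3 lower and 3 not past the threshold, with a median log2 difference of 0.65. With quantile scaling 5 were higher and 1 lower, and with the deposited scaling undone 7 and 1. The steps next to Cps1 were among the higher ones: Otc, which makes citrulline, was at 730 ± 133 against 0 in bladder (at least 201.9-fold), and Nags, which makes the activator of the Cps1 enzyme, averaged 294 ± 34.6 against 1 (adjusted p = 1.05e-05). Prodh, a proline oxidase, averaged 458 against 68 (adjusted p = 5.52e-06). Lower in intestine were Glul, glutamine synthetase (1615 and 1018, adjusted p = 5.94e-05), and the ornithine aminotransferase Oat (4402 and 3541, adjusted p = 0.00223). Ass1, the step after citrulline, averaged 157 in bladder and 207 in intestine (adjusted p = 0.299). Cad, which carries the cytosolic carbamoyl phosphate synthetase of pyrimidine synthesis, averaged 924, 1047 and 891 in bladder, intestine and lung (intestine minus bladder adjusted p = 0.19).

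Fabp1, the liver-type fatty acid binding protein of enterocytes and hepatocytes, lies at chr6:71176811-71182007 on the plus strand. It stood at 634, 621 and 685 in intestine (646.7 ± 33.83, n = 3), at 1, 0 and 3 in bladder, and at 1 and 0 in lung. The ratio over bladder was 403.6 (157.4 to 1482.7, log2 difference 8.34, SE 0.54, adjusted p = 2.43e-06). Lung held 1 read of Fabp1, which puts the ratio over lung between 274.6 and 60531.1 in its counting interval, about a value of 1531.8.

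Fabp2, the intestinal fatty acid binding protein, lies at chr3:122688721-122693155 on the plus strand. It stood at 739, 821 and 845 in intestine (801.7 ± 55.58, n = 3), at 0, 3 and 3 in bladder and at 0 and 3 in lung. The ratio was 400.7 over bladder (171.5 to 1235.2, adjusted p = 8.23e-06) and 633.7 over lung (216.6 to 3074.7, adjusted p = 1.93e-05). Single libraries move these sizes: the log2 difference over lung, 8.65, was 7.65 without lung library 1 and 9.65 without lung library 2, and that over bladder, 8.31, was 7.65 without bladder library 1. Both carriers had at most 3 normalized counts in any bladder or lung library. Fabp2 overlaps the transcript 4933405D12Rik on the other strand, which held 1 to 8 normalized counts in the 8 libraries.

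Liver makes Fabp1 and Cps1 too. Of 6 hepatocyte genes tested, 4 were higher in intestine than in bladder, 1 lower and 1 not past the threshold, with a median log2 difference of 1.76. Over all tested genes 28.7% were higher and 23.3% lower. Only 2 of the hepatocyte genes were higher with quantile scaling, without an intensity trend, without bladder library 2 or 3, and without intestine library 1 or 2. Ttr, the transthyretin gene, averaged 375.7 ± 13.2 in intestine, 17.67 in bladder and 0.5 in lung, and Trf, the transferrin gene that other cells also make, was the lower one, at 867.7 ± 12.22 against 2407.0 ± 473.7. The 8 genes in the table summed to 124 to 134 ppm of all normalized counts in intestine, 181 to 259 in bladder and 217 to 260 in lung, with 2 of them at 0 throughout bladder and 2 throughout lung. Trf made up most of the sum in bladder and in intestine, so the order of those sums follows that gene. The part of hepatocytes in the Fabp1 and Cps1 differences was not tested.

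Other members of the fatty acid binding family were present outside intestine. Fabp4, the adipocyte form, averaged 358 in bladder, 616 in intestine and 300.5 in lung (adjusted p = 0.00182 over bladder). Fabp5, the epidermal form, averaged 136, 298 and 144 (adjusted p = 0.00417), and Fabp3, the heart form, 14, 62.7 and 132 (adjusted p = 0.000663). Fabp6, the bile acid binding protein of the ileum, was at 2, 2 and 8 in intestine and 1, 3 and 1 in bladder, too low to be tested.

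Genes of lipid absorption and lipoprotein assembly were higher in intestine than in bladder for 9 of the 13 tested, with 1 lower and 3 not past the threshold. Apob, the structural protein of chylomicrons, was at 530.3 ± 46.5 against 0 (at least 146.7-fold), Apoa4 at 354 ± 37.6 against 0 (at least 98.0-fold). Mttp, which loads lipid onto Apob, averaged 1527 ± 171 against 232 ± 48.6 (log2 difference 2.72, SE 0.16, adjusted p = 1.62e-06). The lipid droplet coat gene Plin2 was lower (2295 and 1462, adjusted p = 0.000485), and the acyl-CoA synthetase Acsl5 averaged 1857 and 1824 (adjusted p = 0.785).

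Olfm4 encodes a secreted glycoprotein of crypt base stem cells and lies at chr14:80221521-80260579 on the plus strand. It stood at 4094, 3939 and 4338 in intestine (4123.7 ± 201.1, n = 3), at 1, 0 and 7 in bladder, and at 1 and 0 in lung. The ratio over bladder was 1470.5 (713.5 to 3658.1, log2 difference 10.68, SE 0.67, adjusted p = 2.13e-06), with log2 11.51 without bladder library 3, which held most of its bladder reads, and 10.01 without bladder library 2. Lung held 1 read of Olfm4, which puts the ratio over lung between 1752.5 and 385762.9 in its counting interval, about a value of 9766.0 (log2 difference 11.51, adjusted p = 3.55e-06). A predicted gene, Gm6999, overlaps it and shares 105 of its 2955 stretches of 50 bases, and that gene held 7, 10 and 6 normalized counts in intestine and 0 elsewhere. Neutrophils also make Olfm4. Of 8 neutrophil genes tested, 3 were higher in intestine than in bladder, 1 lower and 4 not past the threshold. Against lung 2 were higher and 5 lower. Over all tested genes 28.7% were higher and 23.3% lower than in bladder, and 23.6% higher and 15.9% lower than in lung. Ltf, a granule protein gene that glandular epithelium also makes, stood at 683, 360 and 319 in intestine, 0, 5 and 0 in bladder and 1 and 0 in lung (adjusted p = 2e-05 over bladder). Retnlg averaged 62 ± 7 in intestine, 0 in bladder and 8.5 in lung. The 10 genes in the table summed to 51.1 to 86.2 ppm in intestine, 13.2 to 26.8 in bladder and 113 to 180 in lung, where Mmp9 averaged 1342.5 normalized counts, and 4 of the 10 were at 0 throughout bladder. The part of neutrophils in the Olfm4 difference was not tested.

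Other crypt stem cell genes were divided. Of 26, 14 were called higher in intestine against bladder, 2 lower and 10 not past the threshold, a median log2 difference of 0.64. Prom1, a membrane protein of stem and transit cells, averaged 3109 ± 376 against 68 (log2 difference 5.53, SE 0.23, adjusted p = 3.28e-07), and the ion cotransporter Slc12a2 4118 ± 164 against 294 (log2 difference 3.81, SE 0.10, adjusted p = 5.43e-08). Lgr5, the receptor that defines crypt base stem cells, stood at 396, 359 and 404 in intestine, 559, 461 and 444 in bladder, and 556 and 265 in lung. All intestine values of Lgr5 lay below the bladder values, and the difference did not pass the test (log2 -0.33, SE 0.24, adjusted p = 0.276). The 2 lower genes were Smoc2 (6640 in bladder, 4721 in intestine, adjusted p = 0.00249) and Igfbp4 (4752 and 3651, adjusted p = 0.00123), secreted proteins that mesenchymal cells also make. With quantile scaling, and with the deposited scaling undone, 0 of the 26 were lower. Olfm1, a relative of Olfm4, was lower as well, averaging 2288 in bladder, 1566 in intestine and 1556 in lung (adjusted p = 0.000488). Olfml2a, a more distant relative, averaged 367, 4370 and 3012 and was higher than in bladder (log2 difference 3.57, adjusted p = 1.24e-07).

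**Figure D2:**
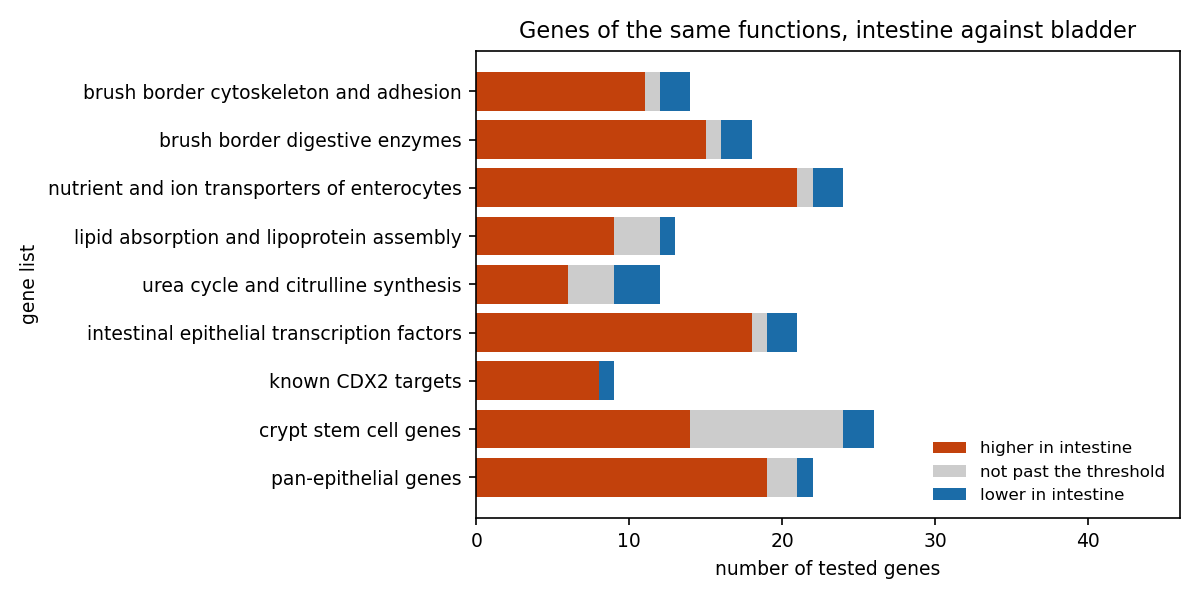
Number of tested genes in 9 functional lists that were higher in intestine than in bladder, lower, or not past the threshold of adjusted p under 0.05. Brush border, digestive, transporter and transcription factor lists are mostly higher, while the crypt list has 14 of 26 and the urea cycle list 6 of 12 higher.

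The villin, alkaline phosphatase, cadherin, fatty acid binding and olfactomedin relatives of the 9 genes did not share their pattern as a group. Of 23 relatives tested, 9 were higher in intestine than in bladder, 8 lower and 6 not past the threshold, with a median log2 difference of 0.07 close to the 0.06 of all genes. That count depends on scaling: with the deposited scaling undone, 13 were higher and 4 lower. Among the villin family, Avil (84.3 in bladder, 254 in intestine, adjusted p = 0.011) and Vill (281 and 457, adjusted p = 0.0335) were higher. Gsn, encoding gelsolin (6901 and 5016, adjusted p = 0.00028), Scin (338 and 172, adjusted p = 0.00335) and Capg (log2 -1.30, adjusted p = 6.24e-06) were lower. Flii averaged 2847.3 and 2995.0 (adjusted p = 0.559).

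Levels of the 9 genes were compared with each other as reconstructed reads per nt of exon in the intestine libraries. The summed ppm shares of lists are not corrected for exon length. Olfm4 came first, at 1.502, 1.531 and 1.530 reads per nt, followed by Fabp1 at 1.246, 1.293 and 1.294. Cps1 (1.007, 1.186 and 0.968) came next and overlapped Cdx1 (0.871, 0.971 and 0.935) and Fabp2 (0.832, 0.980 and 0.915) in range. Alpi, at 0.755, 0.958 and 0.830, overlapped both in range but was below Cdx1 and below Fabp2 in each of the 3 libraries. Cdhr5 (0.444, 0.487 and 0.458) and Vil1 (0.413, 0.483 and 0.422) overlapped each other, and Cdx2 was lowest at 0.224, 0.294 and 0.215. Fabp1 has the shortest exons of the 9, 553 nt.

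Among 20958 genes with an exon length, Olfm4 ranked 71, Fabp1 168, Cps1 344, Cdx1 497, Fabp2 515 and Alpi 616 from the highest. Cdhr5 ranked 1968, Vil1 2138 and Cdx2 4312. The scale had an upper end: the densest gene had 2.444 reads per nt and only 2 genes exceeded 2. Genes at 1 read per nt or more had a median read ratio of 1.013 between intestine libraries 2 and 3, against a depth ratio of 1.097, while genes at 0.1 to 0.5 reads per nt had 1.094. From the densest of the 9 to the least dense, the same ratio was 1.001 for Olfm4, 0.999 for Fabp1, 1.226 for Cps1, 1.039 for Cdx1, 1.071 for Fabp2, 1.154 for Alpi, 1.065 for Cdhr5, 1.144 for Vil1 and 1.367 for Cdx2. Olfm4 and Fabp1 stayed flat while depth rose, Cps1 did not, and the effect of density on the folds was not tested. Acta2 and Myh11 also lay above 1 read per nt in intestine, at 1.316 and 1.719. The effect of density on their levels was not tested either.

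**Figure D3:**
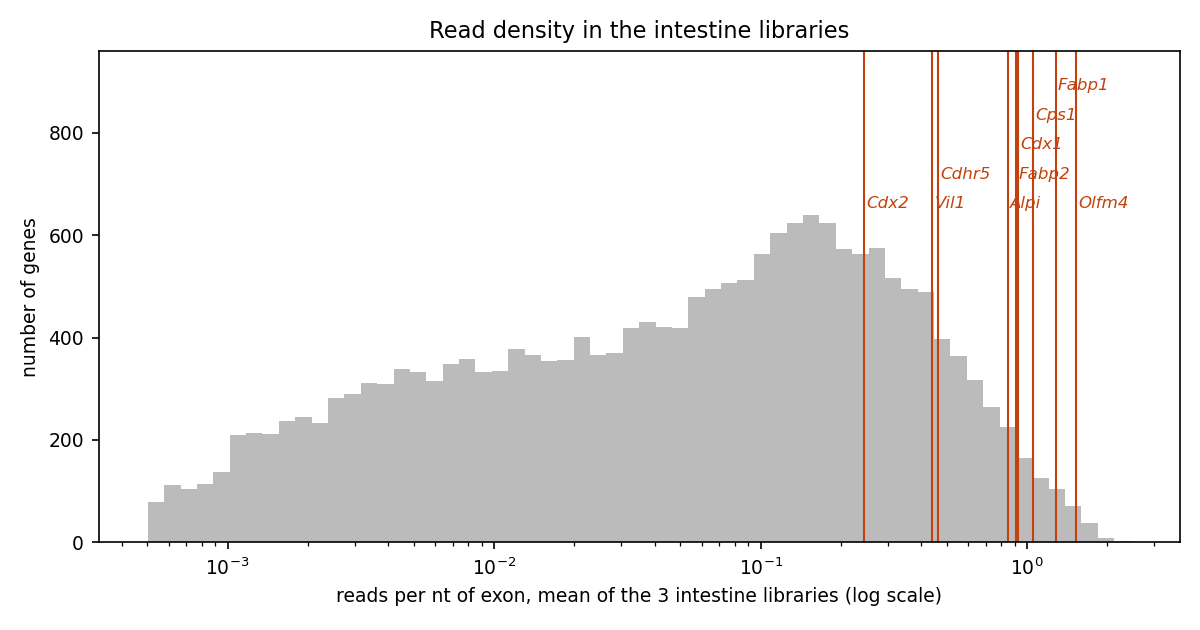
Histogram of reads per nt of exon (log axis, mean of 3 intestine libraries) over genes with a nonzero value, with a vertical line for each of the 9 genes. The lines run from Cdx2 at 0.244 to Olfm4 at 1.521 reads per nt, in the right tail of the distribution for all but Cdx2, Vil1 and Cdhr5.

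Between the intestine libraries, coefficients of variation of the 9 genes ran from 3.54% for Cdhr5 to 12.9% for Cdx2. They were not set against those of other genes. Library 3 held the highest value for 5 genes and library 2 for 4, and library 1 held the lowest for 7. Cdx2 in library 2 stood farthest out, at 114.9% of the gene's mean, and Alpi in library 1 at 89.8%. Fabp1 and Olfm4 were lowest in library 2, at 96.0% and 95.5%, where Cps1 was highest at 107.2%. Fabp1 and Olfm4 are also the densest of the 9, whose reads stayed flat between libraries 2 and 3, and the part of density in this order was not tested.

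**Figure D4:**
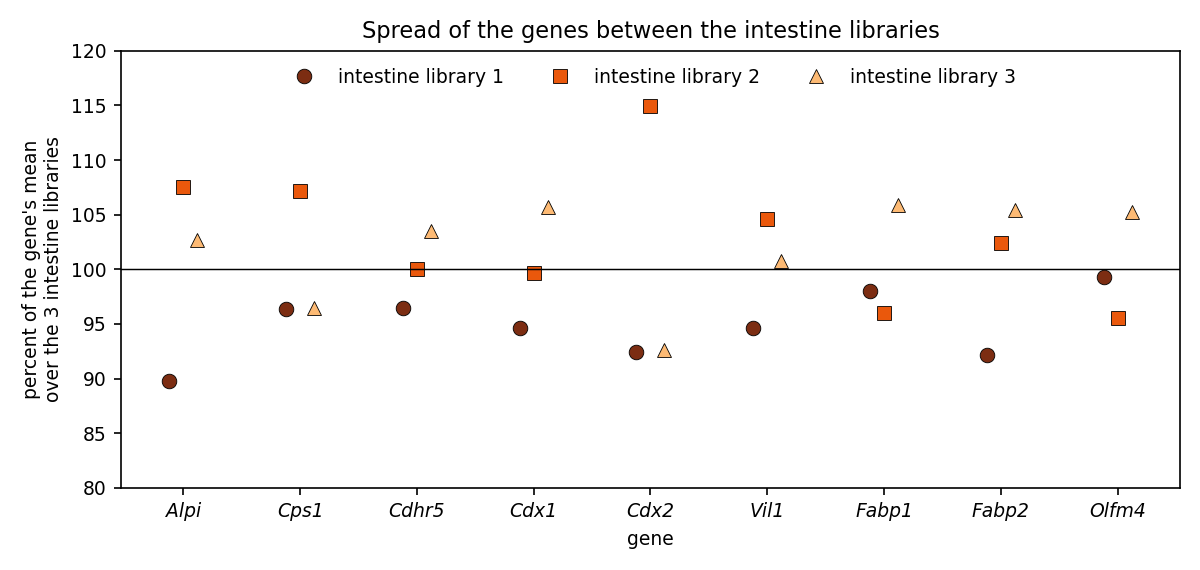
Each gene's value in the 3 intestine libraries as percent of its mean over them, 1 symbol per library. All symbols lie between 89.8% and 114.9%, and the order of the libraries differs between genes.

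The other regulators of the intestinal epithelium followed Cdx1 and Cdx2. Of 21 transcription factors, 18 were called higher in intestine against bladder, 2 lower and 1 not past the threshold. Hnf4a, the nuclear receptor of absorptive differentiation, averaged 1761 ± 252 in intestine, 1 in bladder and 0 in lung (log2 difference over bladder 9.91, SE 0.45, adjusted p = 4.41e-07). Its partner Hnf4g was at 666 ± 104 and 0 in both other tissues, at least 184.3-fold higher than in bladder. Gata4, a factor of the proximal small intestine, averaged 1176 ± 43 against 74.7 (log2 difference 3.98). The 2 lower were Gata6 (1998 in bladder, 795 in intestine, 1833 in lung) and Klf4 (4635, 2457 and 856), which smooth muscle and other cells also make. Of 9 genes known as CDX2 targets, 8 were higher, among them Gpa33 (1060 ± 67.1 against 109 ± 32.5) and Guca2a (341 ± 35.8 against 0.667), and Heph was lower. With the deposited scaling undone 0 of the 9 targets were lower.

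Genes of other epithelial cells moved with the 9. Epcam, the general epithelial adhesion molecule, averaged 139 ± 38.8 in bladder, 2541 ± 118 in intestine and 44 in lung (log2 difference over bladder 4.21, SE 0.24, adjusted p = 1.23e-06). Cdh1, E-cadherin, averaged 345 ± 120, 2622 ± 151 and 49.5 (log2 difference 2.97, SE 0.26, adjusted p = 1.61e-05). Of 22 pan-epithelial genes, 19 were called higher in intestine against bladder, 1 lower (Krt7, 1990 ± 381 in bladder, 831 ± 49.6 in intestine) and 2 not past the threshold, and all 22 were higher than in lung. None of the 22 was at 0 throughout a tissue. Together they made up 2740 to 2967 ppm of all normalized counts in intestine, 660 to 997 in bladder and 118 to 185 in lung, where the 9 genes made up 1436 to 1550, 1.58 to 2.17 and 0.536 to 1.28.

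Secretory epithelial genes were in the intestine libraries too. All 10 goblet cell genes and all 10 Paneth cell genes were higher than in bladder and than in lung. The goblet genes summed to 675 to 786 ppm in intestine, 3.95 to 7.66 in bladder and 0.357 to 0.730 in lung, with Fcgbp, a mucus protein, at 2826 ± 537 in intestine and 0 elsewhere. The Paneth genes summed to 709 to 771, 8.05 to 19.6 and 5.84 to 7.86 ppm, with the antimicrobial lectin Reg3b at a mean of 1081 in intestine and 0 elsewhere. Enteroendocrine genes were higher than in bladder for 9 of the 11 tested, with 1 lower and 1 not past the threshold. They summed to 492 to 540, 26.9 to 42.0 and 2.23 to 4.29 ppm in intestine, bladder and lung. Nts was the lower one, with means of 65.3 in bladder and 16.7 in intestine (adjusted p = 0.0235). Cck averaged 335 and 229 (adjusted p = 0.0904). Tuft cell genes, 6 of 7 higher than in bladder but 2 of 7 with quantile scaling, summed to 103 to 115, 126 to 132 and 123 to 141 ppm in intestine, bladder and lung. The largest part of each tuft sum was Dclk1, the 1 tuft gene called lower in intestine than in bladder. It averaged 1417 in bladder, 679 in intestine and 1368 in lung (adjusted p = 7.14e-06 over bladder). In bladder 4 goblet, 4 Paneth and 5 enteroendocrine genes were at 0 in every library.

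Stomach gland genes were also present in intestine, at 1294 to 1349 ppm against 34.7 to 73.9 in bladder and 15.1 to 31.6 in lung, and all 8 tested were higher than in bladder. Pgc, the pepsinogen C gene, averaged 2152 ± 74 in intestine and 29.3 in bladder (log2 difference 6.30, adjusted p = 1.57e-06), and the proton pump subunit Atp4a 908 and 0.667. Of the markers of gut regions, the ileal list summed to 18.1 to 20.4 ppm in intestine and the colonic list to 46.5 to 52.1 ppm. Gata4 and Akp3, named above for the proximal small intestine and the duodenum, averaged 1176 and 1102 normalized counts there. Of 5 ileal bile acid genes, 2 were tested and both were higher in intestine, and of 7 colonic surface genes 4 of 5 tested were higher, while the distal colon factor Hoxb13 was at 0 in intestine and 13.3 in bladder on average.

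The other organs' libraries held epithelial genes of their own. The 16 urothelium genes were all higher in bladder than in intestine and summed to 1038 to 1412 ppm in bladder, 69.5 to 71.8 in intestine and 70.3 to 84.4 in lung. Krt5, the basal cell keratin, averaged 329 ± 72.8 in bladder and 0 in both other tissues. The lung epithelium genes summed to 421 to 464 ppm in lung, 82.4 to 87.4 in bladder and 98.9 to 128.5 in intestine, and surfactant gene Sftpa1 averaged 1283 ± 146 in lung and 0 in bladder. Of these 15 lung genes, 13 were higher in lung than in bladder, 1 was lower and 1 not past the threshold. The lower one, Abca3, averaged 889 in bladder, 955 in intestine and 422.5 in lung (lung minus bladder log2 -1.31, adjusted p = 0.0244). Abca3 made up most of the list's sum in bladder and in intestine. With the deposited scaling undone 0 of the 15 were lower. Contractile smooth muscle genes summed to 1691 to 2056 ppm in bladder, 2984 to 3214 in intestine and 3238 to 3239 in lung. The part of the accompanying epithelial genes in the differences of the 9 was not tested.

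**Figure D5:**
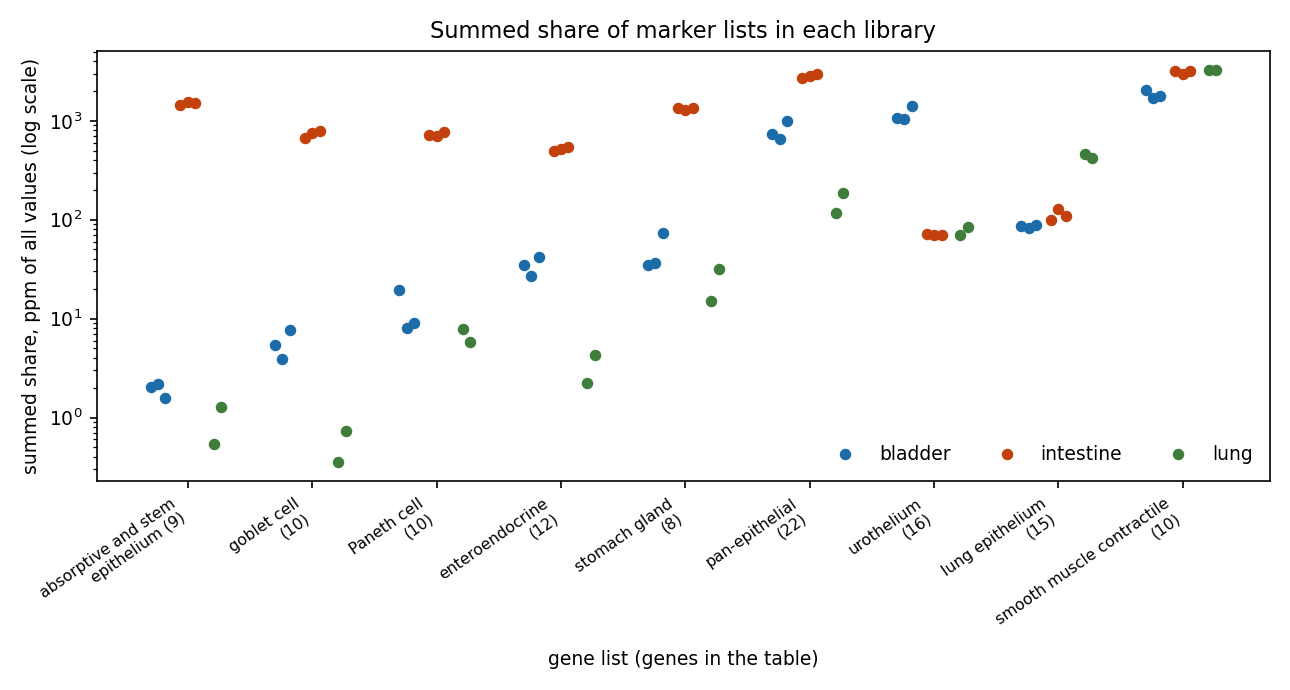
Summed share of 9 marker lists in every library, in ppm of all normalized counts (log axis), 1 point per library coloured by tissue, with the number of genes in the table in brackets. The 9 absorptive and stem genes lie at 1436 to 1550 ppm in intestine and below 3 ppm elsewhere, and the goblet, Paneth, enteroendocrine and stomach lists are also highest in intestine.

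Between lung and bladder the 9 genes were compared at low levels. None was higher in lung, where 19.2% of tested genes were, and 1 was lower, where 21.8% were. The libraries of 1 gene did not overlap, with bladder higher, against 29.5% of tested genes wholly higher in bladder and 28.6% wholly higher in lung. That gene was Cps1, with 20, 21 and 2 normalized counts in bladder and 0 and 0 in lung (log2 -3.48, SE 0.75, adjusted p = 0.00496). The call was lost when only these 2 tissues were fitted (adjusted p = 0.0643). Alpi, at 0 in bladder and 0 and 8 in lung, did not pass (log2 1.58, SE 0.76, adjusted p = 0.13). It passed when lung library 1 was left out (log2 3.17, adjusted p = 0.000417), a value that rests on the library at 8. Cdhr5, Cdx1 and Cdx2 were at 0 in all 5 libraries, and Fabp1, Fabp2 and Olfm4 averaged under the 3-read floor in both tissues, so no fold is given for them. Vil1 averaged 3.5 in lung and 3.333 in bladder (log2 0.05, SE 0.32, adjusted p = 0.925).

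The genes most like the 9 were sought among 11857 tested genes with an intestine mean of at least 100, by Pearson's r with the mean log2 profile of the 9 over the 8 libraries. The first 6 were Igkv6-15, Igkv5-48, Clca3b, Prss32, Ighv3-6 and Cyp3a25, all with r = 0.9992. Each was at 0 in every bladder and lung library. Clca3b, a calcium-activated chloride channel regulator gene, averaged 3119 ± 203 in intestine, and Prss32, a serine protease, 960.3 ± 34.4. The 3 immunoglobulin variable genes, Igkv6-15, Igkv5-48 and Ighv3-6, averaged 254 ± 9.85, 283 ± 14.8 and 380.3 ± 23.5, and the cytochrome P450 gene Cyp3a25 218 ± 13.8. In all, 168 genes had r above 0.99. The 8 points fall into 1 high and 1 low cluster shared by all these genes, so the measure orders them weakly, and no p is given.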

How the data were processed

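RNA from sorted cells was sequenced after SMART-Seq v4 amplification of at most 10 ng of total RNA, per the labels' protocols. Build mm39, DESeq2 1.36.0, featureCounts 2.0.4, STAR 2.7.10a, Trimmomatic 0.39 and Picard 3.0.0 are listed in the submitters' processing notes without a role. The deposited values were treated as a score: read counts that the authors multiplied by a constant per library and rounded, as read from the spacing of the values. Columns of other samples numbered 0. The value of 1 read was estimated from that spacing and tested on simulated data, where reconstructed counts were within 1 read. Because the values are not raw counts, the fallback test was used: limma 3.58.1 (R 4.3.3) with eBayes trend on log2(value + 1), fitted to the 8 libraries together, for genes reaching 10 in 2 or more libraries, Benjamini-Hochberg adjustment, two-sided, called at adjusted p under 0.05. Of 21649 genes 18097 were tested. Fold changes on this scale understate low genes. Gene coordinates are those of the deposited table (mm39), and the promoter windows are RefSeq's on GRCm38.p6. Exon lengths came from GENCODE M21 and covered 96.8% of genes. Library depth was 9.72 to 13.62 M reads.

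The members and lists were chosen with earlier results of these data known. Named genes were the 9 and their relatives, and from each list up to 3 genes with the smallest adjusted p over bladder, up to 2 called the other way, up to 2 abundant ones not past the threshold, and Epcam, Cdh1, Lgr5, Acta2, Myh11 and Cspg4. Replicate numbers were not treated as pairs. Alternatives were the scaling, the filter, the pseudocount, the samples in the fit, the replicate block and leaving out each library.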

Additional observations from a re-analysis of the deposited data

How the results depend on the processing

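All 9 genes stayed higher in intestine than in bladder, and than in lung, under every alternative run. Of 135 recomputed differences over bladder and 126 over lung, 135 and 126 kept their direction and their call. Between lung and bladder only Cps1 and Alpi were recomputed one by one, and 26 of 28 did. With only the 2 tissues fitted, 0 of the 9 were lower in lung instead of 1. Leaving out 1 library gave 0 to 1 genes higher in lung, the 1 being Alpi without lung library 1. Sizes moved more when a library was left out for genes whose values differed between the libraries of bladder or of lung. Vil1, at 3 or 4 in each of them, ranged from 8.32 to 8.48 over bladder and from 8.15 to 8.48 over lung. Cdx1, at 0 in each of them, ranged from 10.49 to 10.57 over both. Over bladder, Cps1 ranged from 7.95 to 9.39 on the log2 scale, Fabp1 from 7.84 to 8.84, Fabp2 from 7.65 to 8.65 and Olfm4 from 10.01 to 11.51. The lowest values came without bladder library 3 for Cps1, 2 for Fabp1 and Olfm4, and 1 for Fabp2. Over lung, Alpi ranged from 7.65 to 10.82, Fabp1 from 8.34 to 9.34, Fabp2 from 7.65 to 9.65 and Olfm4 from 11.01 to 12.01, the lower value without lung library 1 for Alpi and Fabp2 and without lung library 2 for Fabp1 and Olfm4.

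Counts over all genes depend on scaling. With the deposited scaling undone, 8321 genes were higher and 1928 lower in intestine than in bladder, in place of 5185 and 4210, and 7955 higher and 1897 lower in lung than in bladder, in place of 3466 and 3952. With quantile scaling, 5172 genes were lower in intestine than in lung, in place of 2882. Higher calls made up 55.2% over bladder, 81.2% with scaling undone, 41.7% with quantile scaling and 61.8% with equal totals. Undoing the scaling moved the median of all genes from 0.06 to 0.45 between intestine and bladder and from 0.00 to 0.48 between lung and bladder. Quantile scaling moved it to -0.15 between intestine and bladder and to -0.18 between intestine and lung. Whether equal library numbers pair the samples is not stated. Correlations of deviations from the tissue mean ran from -0.026 to 0.058 for same-numbered libraries and from -0.072 to 0.072 for the others. With 2 or 3 libraries per tissue, these correlations cannot settle it. With the number as a replicate block, 9 and 9 of the genes stayed higher in intestine, 0 were higher and 1 lower in lung than in bladder, and 5058 genes were higher and 3982 lower in intestine than in bladder. A gene listed at 0 had no reads, but at these depths a level of up to 3 expected reads in a library can still give 0. Ratios over 1 to 7 reads have wide counting intervals.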
